A study of Rattus norvegicus with 12 samples.

Results

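The 53 genes described here are the chemokines and chemokine receptors of the rat ovary, 33 ligands and 20 receptors out of 19730 genes in the deposited table. They were taken by name, as every gene whose symbol is Ccl, Cxcl, Cx3cl, Xcl, Ccr, Cxcr, Cx3cr, Xcr or Ackr followed by a number. The family was chosen with earlier results of these data known. Whole ovaries came from wild-type Sprague Dawley rats in postnatal week 15. RNA from 4 rats per group was sequenced. The control group was untreated and ate standard food. The PCOS group received letrozole, an aromatase inhibitor that blocks the conversion of androgens to estrogens, for 30 days together with a high-fat diet (HFD), as a model of polycystic ovary syndrome (PCOS). The PCOS-MV group received the same and then mogroside V (MV), a triterpene glycoside of the monk fruit, for 30 days. MV was therefore given only to rats that had also received letrozole and the HFD, and the 2 agents of the model were always given together. Values are FPKM, fragment counts scaled to transcript length and library size, so levels are per length and can be set side by side between genes. The figure after ± is the SD over the 4 libraries for a level and the standard error (SE) for a log2 fold change of FPKM + 1.

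Chemokines are small secreted proteins that bind heparan sulfate on cell surfaces and guide the migration of leukocytes through receptors coupled to inhibitory G proteins. Inflammatory members are induced at sites of infection or injury, homeostatic members are made steadily and position cells within tissues, and atypical (Ackr) receptors bind chemokines without G protein signaling and clear them. In the ovary, leukocytes enter the follicle wall at ovulation and the corpus luteum as it forms and regresses.

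Summed FPKM was 339830 to 373758 per library, and 17576 to 18247 genes had a value above 0. Read numbers cannot be had from FPKM and the absolute depth is unknown. Judged by the steps between low values, the other 11 libraries were sequenced 0.919 to 1.119 times as deeply as Control replicate 1. The genes that define ovarian cells were present in every group, with summed levels of 891.6 to 1247.3 FPKM over the Control libraries, 1515.8 to 2159.47 over the PCOS libraries and 818.3 to 1394.04 over those of PCOS-MV for the 9 granulosa cell markers. The 6 luteal cell markers found summed to 2975.2 to 5050.7 FPKM over the Control libraries, 1158.8 to 2290.9 over the PCOS libraries and 2197.46 to 4595.9 over those of PCOS-MV. Those for the 6 theca and interstitial cell markers found were 1356.46 to 3062.01 FPKM over the Control libraries, 2252.2 to 4279.4 over the PCOS libraries and 786.8 to 2762.2 over those of PCOS-MV, and the 9 oocyte markers found summed to 15.6 to 26.48 FPKM over the Control libraries, 14.9 to 16.8 over the PCOS libraries and 17.2 to 26.999 over those of PCOS-MV. Control replicate 3 stood apart, with 95.9 FPKM of the plasma cell gene Jchain against 10.2 to 11.9 in the other control libraries, so results that change without it are given both ways.

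The filter of a mean of at least 1 FPKM over the 12 libraries left 28 of the 53 members for the test, and 25 fell below it. Xcl1 and Ccl12 passed it because 1 group alone averaged 1 FPKM or more. In the PCOS group compared with the control group, 12 of the 28 were significantly changed at an adjusted p under 0.05 (limma on log2(FPKM + 1), 4 libraries against 4), where 27.4% of the 13430 genes tested were. The 7 upregulated members were Ccl11, Xcl1, Ccl24, Cxcl10, Cxcl12, Cxcl9 and Ccl27, and the 5 downregulated were Cxcr4, Cxcl13, Ccl4, Cx3cl1 and Cxcl16. Among all genes tested, 11.9% were upregulated and 15.6% downregulated. In the PCOS-MV group compared with the PCOS group, 10 of the 28 members were significantly changed, where 25.7% of all genes were. Xcl1, Ccl24, Ccl11, Ccl7, Cxcl1 and Cxcl14 were lower, and Cxcr4, Ccl6, Ccl12 and Cx3cl1 were higher. With the libraries rescaled by their median ratio, 7 members were higher and 3 lower in PCOS compared with Control, where 14.3% and 14.3% of all genes were. In PCOS 7 members were above the control group and 6 below it with no overlap between libraries, where 13.8% and 17.2% of all genes were (31.0% together), and in PCOS-MV 3 were above and 6 below the PCOS group, where 16.7% and 13.3% were (30.0% together). Both comparisons use the same PCOS libraries and are not independent of each other. In the PCOS-MV group compared with the control group, 0 of the 28 members were called, where 0.00745% of all genes were.

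The median log2 fold change of the 28 members was -0.03 in PCOS compared with Control, as it was over all 13430 genes, and 0.03 in PCOS-MV compared with PCOS, again as over all genes. The median size of the change, without its sign, was 0.41 against 0.22 over all genes in the first comparison and 0.48 against 0.21 in the second. In PCOS-MV compared with Control, where 0 members were called, the median size was 0.25 against 0.12. By role, 7 of the 20 ligands tested were higher and 4 lower in PCOS, and of the 8 receptors tested 0 were higher and 1 lower. Between PCOS-MV and PCOS, 3 of the 20 ligands were higher and 6 lower, and 1 of the 8 receptors was higher and 0 lower. Over all genes tested, 11.9% were higher and 15.6% lower in PCOS, and 14.3% higher and 11.4% lower in PCOS-MV than in PCOS. The plot of fold changes shows Ccl11, Xcl1 and Ccl24 at one end and Cxcr4 at the other. All tissue values are from whole ovary, in which fewer cells of a type and less RNA per cell cannot be told apart.

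**Figure D1:**
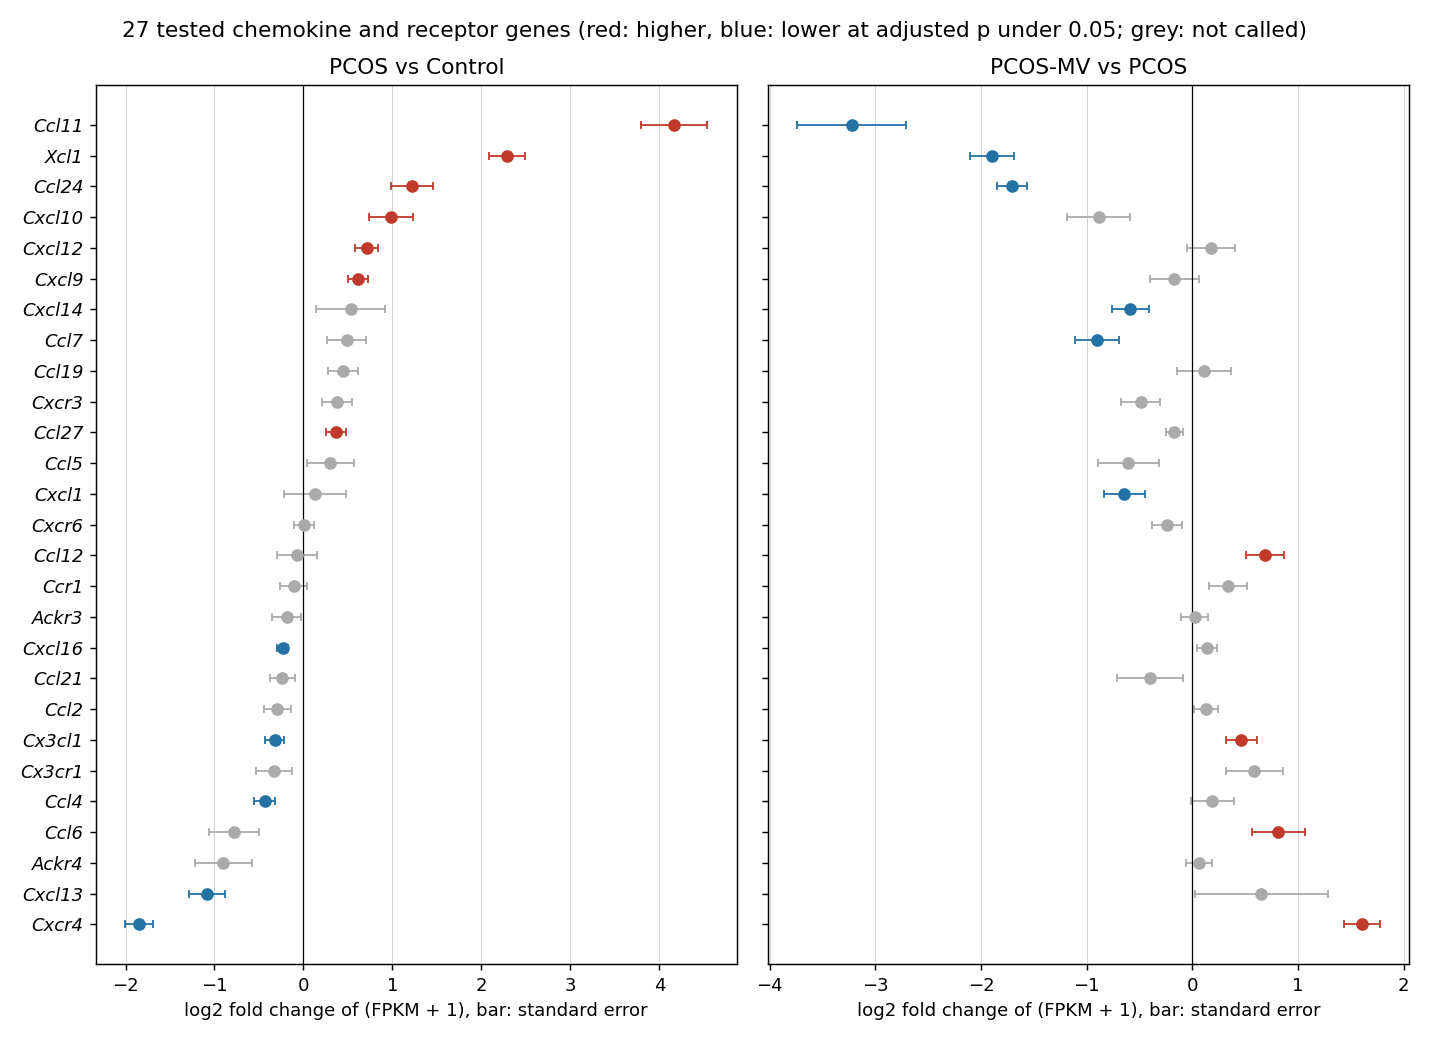
Log2 fold change of (FPKM + 1) with its standard error for 27 of the 28 tested members, in PCOS compared with Control (left) and PCOS-MV compared with PCOS (right), with red for higher and blue for lower at an adjusted p under 0.05 and grey for not called. In the left panel Ccl11 is highest at 4.17 and Cxcr4 lowest at -1.85, and in the right panel Ccl11 is lowest at -3.22 and Cxcr4 highest at 1.61.

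By level, Ccl21, a lymphatic endothelial ligand that draws dendritic cells and naive T cells, was the most abundant member in every group, at 127.6 ± 25.2 FPKM (SD, n = 4) in the control group, 106.9 ± 9.73 in the PCOS group and 87.8 ± 38.46 in the PCOS-MV group. Rodent genomes hold near-identical copies of this gene, so its reads may be split between copies and its value is uncertain. A mean of at least 10 FPKM was reached by 10 members in the control group, 8 in the PCOS group and 9 in the PCOS-MV group. In the control group Cxcl14, Cxcr4 and Cxcl9 followed Ccl21, at 34.2 ± 17.8, 30.2 ± 6.53 and 28.52 ± 4.83 FPKM, and these 3 neighbours in the order did not differ beyond their spread. In the PCOS group Ccl11, at 61.6 ± 31.3 FPKM, came after Ccl21. Among the 53 members, Ccl11 stood at rank 20 in the control group, 2 in the PCOS group and 12 in the PCOS-MV group, and Xcl1 at 38, 13 and 28.

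**Figure D2:**
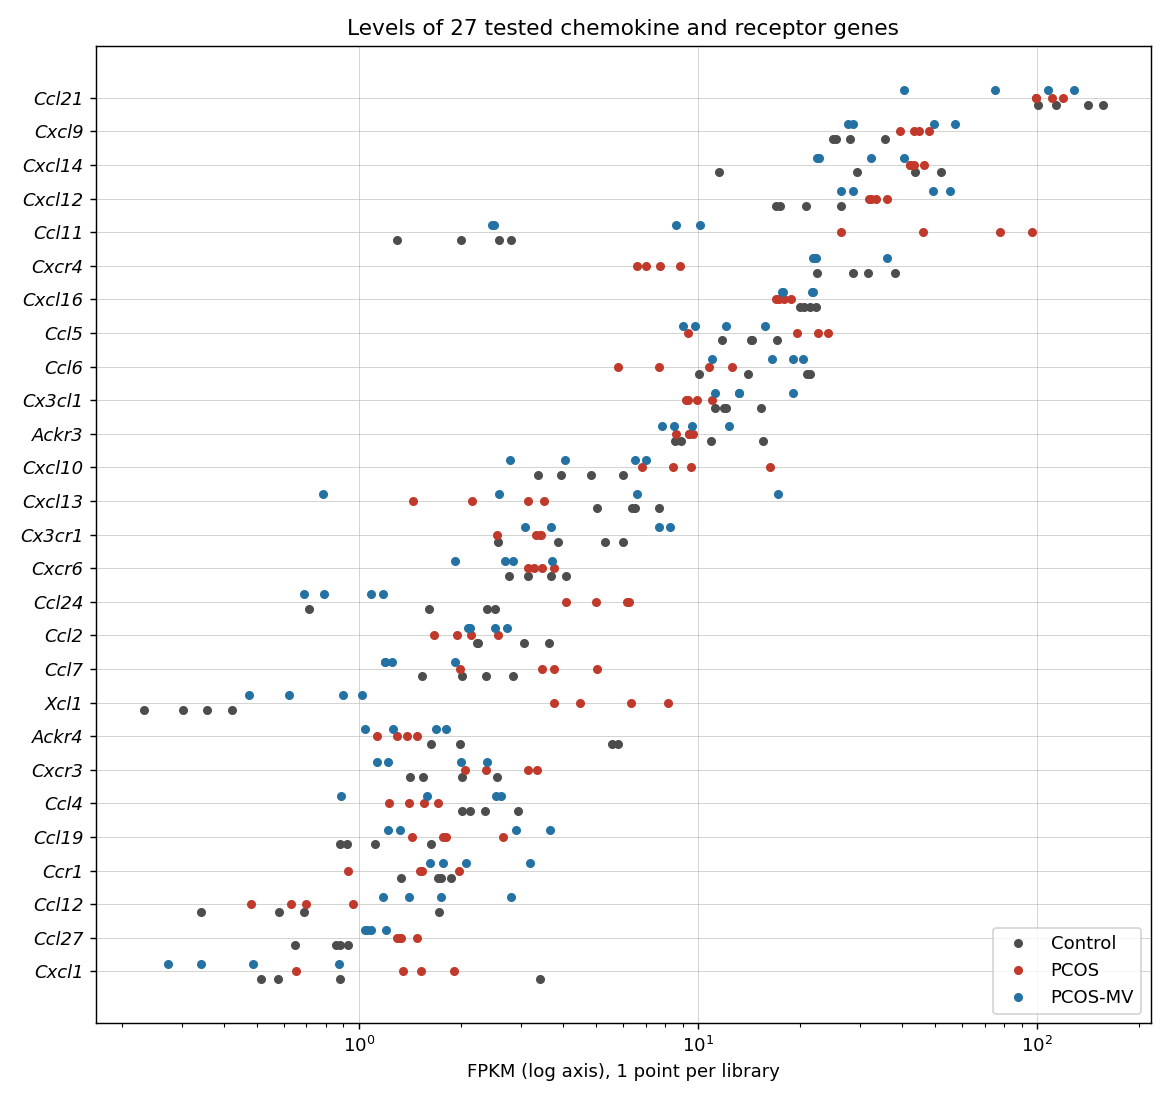
FPKM on a log axis of 27 of the 28 tested members in the 12 libraries, with 1 point per library and the 3 groups in 3 colors, ordered by mean level. The red PCOS points of Ccl11, Ccl24 and Xcl1 lie to the right of all control points, those of Cxcr4 lie to the left, and Ccl21 is at the top.

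Ccl11 (eotaxin-1) had the largest rise in PCOS of the 28 tested members on the log2(FPKM + 1) scale and Ccl24 (eotaxin-2) the third largest. Both recruit eosinophils and other cells through the receptor Ccr3. Ccl11 in replicates 1 to 4 was at 2.59, 2.80, 2.001 and 1.29 FPKM in the control group, 45.9, 77.4, 96.4 and 26.47 FPKM in the PCOS group and 2.46, 8.61, 2.495 and 10.1 FPKM in the PCOS-MV group. Every PCOS library was above every other library, and within the PCOS-MV group replicates 2 and 4 were above replicates 1 and 3. The PCOS mean was 28.3 times the control mean. Ccl11 rose by a log2 fold change of 4.17 ± 0.37 (SE, adjusted p = 1.04e-04, limma) in PCOS and fell by 3.22 ± 0.51 (adjusted p = 0.00294) in PCOS-MV compared with PCOS. For any gene whose groups do not overlap, the exact two-sided permutation test of 4 against 4 libraries gives p = 0.0286, the smallest it can give.

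Ccl24 was at 1.61, 0.713, 2.39 and 2.52 FPKM in the control group, 4.997, 6.24, 6.17 and 4.08 FPKM in the PCOS group and 1.18, 1.09, 0.789 and 0.690 FPKM in the PCOS-MV group. The PCOS libraries were again above all others, while control and PCOS-MV libraries overlapped. Ccl24 rose by a log2 fold change of 1.22 ± 0.24 (adjusted p = 0.00561, limma) in PCOS and fell by 1.71 ± 0.14 (adjusted p = 1.63e-04) in PCOS-MV compared with PCOS. The receptor Ccr3 did not pass the filter. It was at 0.172, 0.0412, 0.192 and 0.0957 FPKM in the control group, 0.399, 1.22, 2.02 and 0.450 FPKM in the PCOS group and 0.127, 0.121, 0.108 and 0.0959 FPKM in the PCOS-MV group. The groups did not overlap, since every PCOS library was above all the others, but replicates 2 and 3 of the PCOS group were well above replicates 1 and 4, and those were also the libraries with the most Ccl11. In the test without the filter, Ccr3 did not pass the threshold in either comparison, with log2 fold changes of 0.77 ± 0.24 (adjusted p = 0.0668, limma) and -0.79 ± 0.24 (adjusted p = 0.0647).

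Of the eosinophil and mast cell genes listed, Epx, Prg2 and Il5ra were near 0 throughout, while Siglec5, Kit and Mcpt1l1 passed the filter. Epx, eosinophil peroxidase, was at 0.132 to 0.366 FPKM over the Control libraries, 0.171 to 0.482 over the PCOS libraries and 0.0420 to 0.239 over those of PCOS-MV. Prg2, the major basic protein, did not exceed 0.0683 FPKM in any library. Il5ra, the interleukin-5 receptor, was at 0.00608 to 0.0412, 0.0377 to 0.161 and 0 to 0.0190 FPKM in the same order, so its values were low and its PCOS libraries overlapped those of Control. Epx, Prg2 and Il5ra were picked from the marker list after their values were seen. The 10 eosinophil and mast cell markers summed to 13.4 to 21.8 FPKM over the Control libraries, 44.7 to 51.01 over the PCOS libraries and 8.19 to 17.4 over those of PCOS-MV, and most of the PCOS sum was Kit, which oocytes and theca cells also express, at 41.96 to 45.99 FPKM. Of the 10, 3 were tested. Kit was higher in PCOS (2.06 ± 0.21), Siglec5, at 0.24, was not called, and Mcpt1l1, a mast cell protease, was lower (-1.52 ± 0.18, adjusted p = 4.61e-04, limma). In PCOS-MV compared with PCOS Kit was lower (-2.26 ± 0.23), and the values of Siglec5, -0.45, and Mcpt1l1, -0.09 ± 0.15, were not called.

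**Figure D3:**
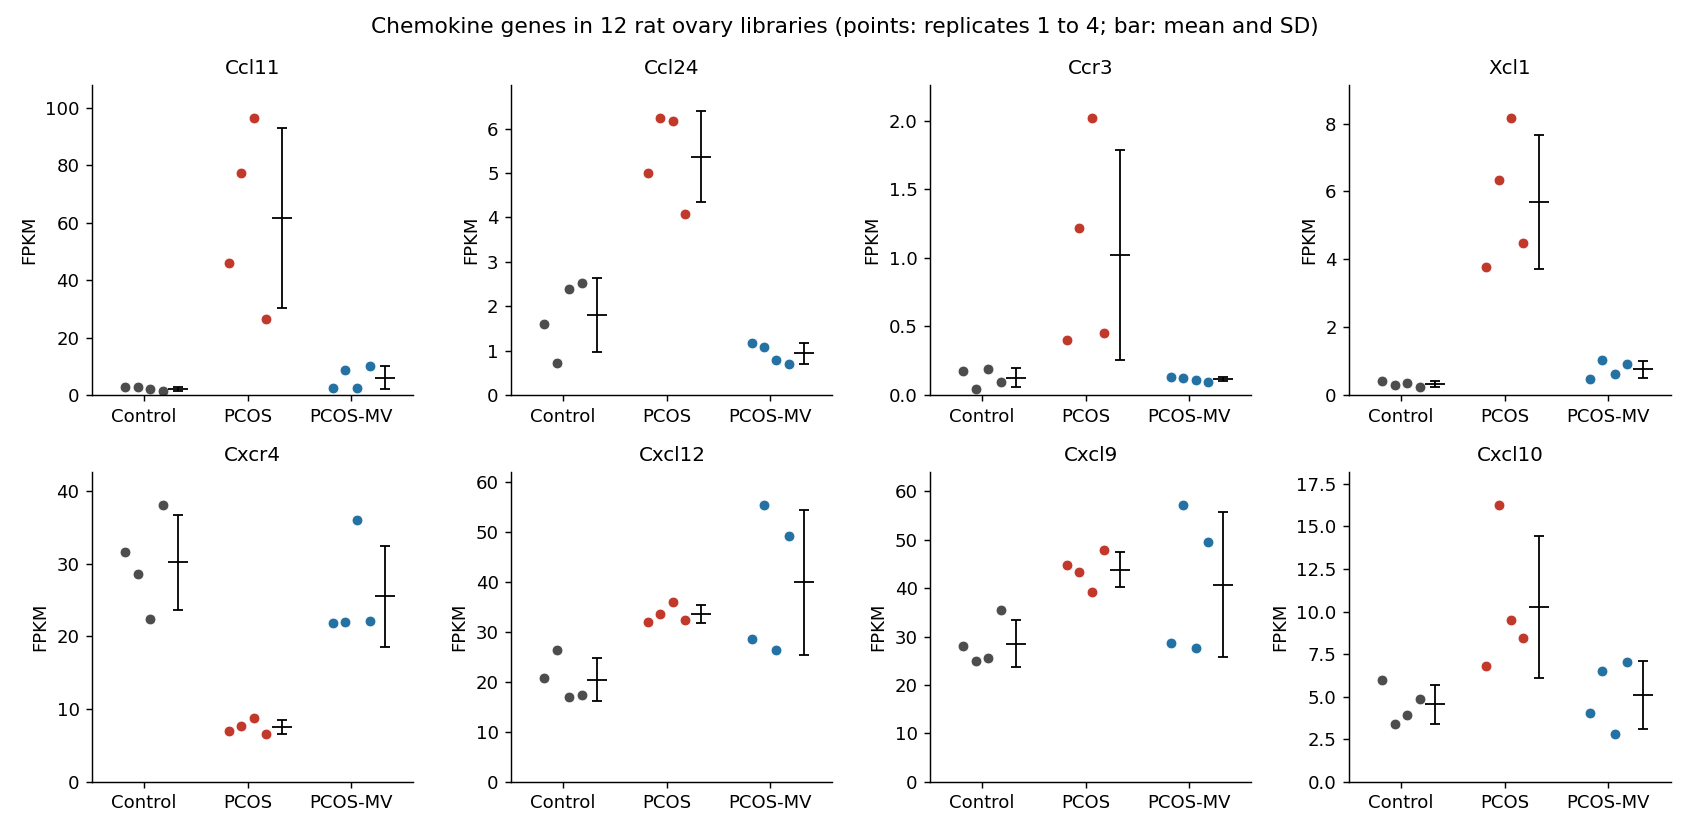
FPKM of 8 members in Control, PCOS and PCOS-MV libraries, with 1 point per replicate (1 to 4 from left to right) and a bar for the mean and SD, each panel on its own linear axis from 0. PCOS points of Ccl11, Ccl24, Ccr3 and Xcl1 are above all others, those of Cxcr4 are below all others, and the PCOS-MV points of Cxcl12 and Cxcl9 form a high and a low pair.

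Ccl11 lies in a cluster of CC ligands on chromosome 10 in the deposited table, where 5 genes (Ccl2, Ccl7, Ccl11, Ccl12 and Ccl1) span 125.866 kb from 69412017 to 69537882. The genome build of the table is not given in the sources used here. Ccl7, whose end is 9.961 kb from the start of Ccl11, is a monocyte attractant that also binds Ccr3. It was at 2.02, 2.37, 2.85 and 1.53 FPKM in the control group, 3.76, 1.98, 5.03 and 3.47 FPKM in the PCOS group and 1.91, 1.25, 1.19 and 1.20 FPKM in the PCOS-MV group. The PCOS-MV libraries were all below the PCOS libraries, and control and PCOS libraries overlapped. Ccl7 did not pass the threshold in PCOS compared with Control (0.49 ± 0.22, adjusted p = 0.135, limma) and fell by 0.90 ± 0.21 (adjusted p = 0.0145) in PCOS-MV compared with PCOS. With 1 library left out at a time, its change in PCOS was 0.34 to 0.68, with adjusted p from 0.0317 to 0.297, and it passed without PCOS replicate 2.

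Ccl2, the main monocyte attractant, lies on the other side of Ccl7 and was at 2.80 ± 0.686, 2.08 ± 0.383 and 2.37 ± 0.305 FPKM on average in Control, PCOS and PCOS-MV. It was not called in any comparison. Ccl12, another monocyte attractant, was at 0.582, 0.342, 0.691 and 1.73 FPKM in the control group, 0.631, 0.700, 0.963 and 0.481 FPKM in the PCOS group and 1.75, 1.40, 1.18 and 2.80 FPKM in the PCOS-MV group. Control replicate 4 was far above the other control libraries, and the PCOS-MV libraries were all above the PCOS libraries. Ccl12 rose by 0.69 ± 0.18 (adjusted p = 0.0228, limma) in PCOS-MV compared with PCOS, and in PCOS compared with Control its value was -0.07 ± 0.23. The call was lost without PCOS replicate 1, 2 or 4, where adjusted p reached 0.0647. Ccl12 passed the filter only through the PCOS-MV group, where it was high, and without the filter adjusted p was 0.0380 (limma). Ccl1, which draws T cells and ends the cluster, was below the filter, at 0, 0.109, 0.0580 and 0 FPKM in the control group, 0.230, 0.361, 0.548 and 0.387 in the PCOS group and 0, 0.0544, 0.0841 and 0 in the PCOS-MV group. In the test over all 19730 genes it was higher in PCOS (0.40 ± 0.07, adjusted p = 0.00763, limma) and lower in PCOS-MV than in PCOS (-0.41 ± 0.07, adjusted p = 0.00743). The 5 neighbours thus differed in direction in PCOS-MV compared with PCOS, where Ccl12 was higher and Ccl7, Ccl11 and Ccl1 were lower. In PCOS compared with Control only Ccl11 and Ccl1 were called, both higher. On the log2(FPKM + 1) scale Ccl11 changed far more than the genes beside it. That scale understates low genes, and the PCOS mean of Ccl1 was 9.12 times its control mean.

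**Figure D4:**
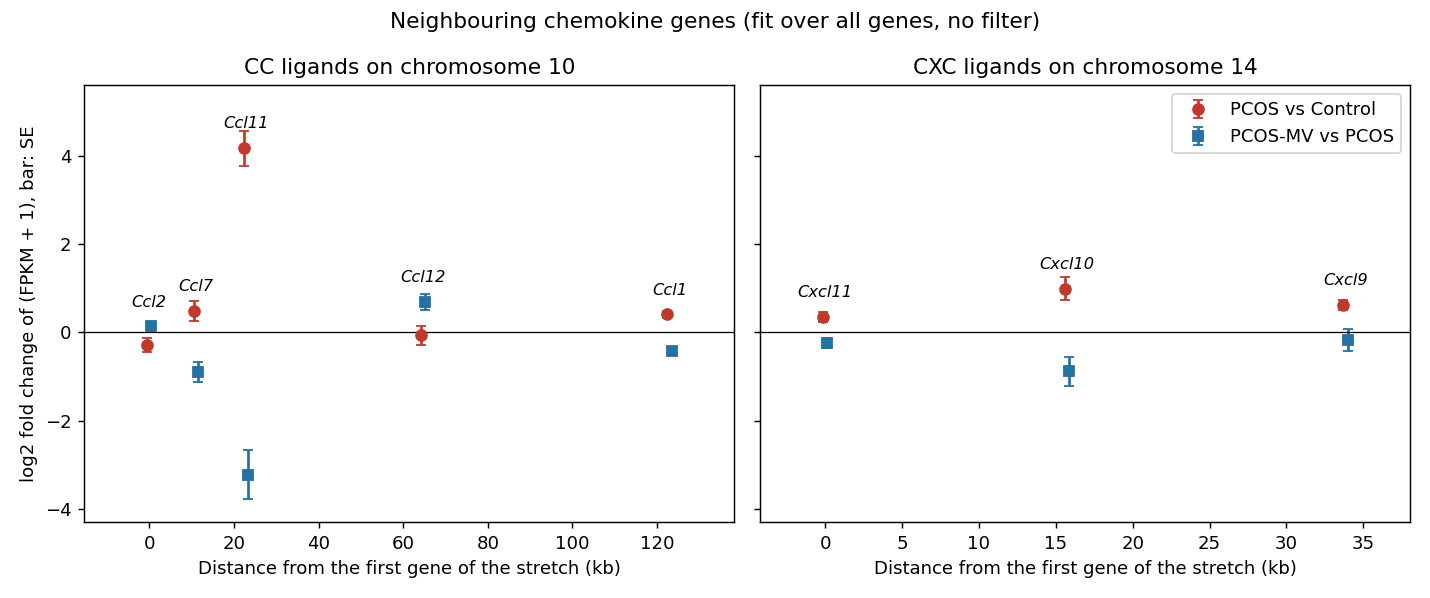
Log2 fold change with standard error of neighbouring chemokine genes against their distance in kb from the first gene of the stretch, on chromosome 10 (left) and chromosome 14 (right), for PCOS compared with Control (red circles) and PCOS-MV compared with PCOS (blue squares), from the test without a filter. Ccl11 stands at 4.17 and -3.22 between neighbours within about 1 of 0, and Cxcl10 is the farthest from 0 of its stretch.

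Promoters were read from RefSeq (GRCr8), 250 bases before to 50 bases after the start, for the 40 members of the 53 with an entry, and searched on both strands for the binding motifs of regulators known to induce chemokines. The letters were GAAANNGAAA for the interferon-stimulated response element (ISRE), TTCNNNGAA for the interferon-gamma activated site (GAS), TTCNNNNGAA for STAT6, GGGNNNTTCC for NF-kB and TGA and TCA around any 1 base for AP-1. Of the 40 members, 2, 6, 3, 10 and 7 had a match in this order, where 3.92%, 8.87%, 7.28%, 5.37% and 7.33% of all 33469 promoters of the same length had one. A match describes the letters and says nothing about binding. Shown here, with matches in capitals, is Ccl24 from chr12:26737173-26737472 on the plus strand, the eotaxin with an entry, whose capitals mark a GAS match.
Ccl24: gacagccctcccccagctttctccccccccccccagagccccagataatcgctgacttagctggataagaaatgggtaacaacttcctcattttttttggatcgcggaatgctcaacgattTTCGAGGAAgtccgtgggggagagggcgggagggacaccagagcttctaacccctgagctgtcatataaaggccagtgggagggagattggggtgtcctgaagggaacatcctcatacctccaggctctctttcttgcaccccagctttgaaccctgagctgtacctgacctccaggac

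Xcl1 (lymphotactin), made by natural killer (NK) cells and activated T cells, attracts cross-presenting dendritic cells through its receptor Xcr1. Its 300 promoter bases from chr13:79785391-79785690 on the minus strand, shown because Xcl1 had the second largest rise, held none of the 5 motifs.
Xcl1: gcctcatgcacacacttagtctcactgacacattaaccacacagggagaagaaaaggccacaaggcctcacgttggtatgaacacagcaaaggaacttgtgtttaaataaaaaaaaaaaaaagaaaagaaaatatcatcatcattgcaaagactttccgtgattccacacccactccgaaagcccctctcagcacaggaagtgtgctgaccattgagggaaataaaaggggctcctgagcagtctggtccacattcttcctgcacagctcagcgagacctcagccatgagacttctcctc
Xcl1 was at 0.423, 0.303, 0.357 and 0.232 FPKM in the control group, 3.76, 6.33, 8.16 and 4.47 FPKM in the PCOS group and 0.472, 1.02, 0.622 and 0.897 FPKM in the PCOS-MV group. All PCOS libraries were above all PCOS-MV libraries, which were in turn all above the control libraries. Xcl1 rose by 2.29 ± 0.20 (adjusted p = 9.27e-05, limma) in PCOS, to 17.3 times the control mean, and fell by 1.89 ± 0.21 (adjusted p = 5.72e-04) in PCOS-MV compared with PCOS. It passed the filter only through the PCOS group, where it was high. In the test without the filter, adjusted p was 4.51e-04 and 0.00229 (limma). Xcr1 was below the filter, at 0.976, 0.633, 0.667 and 0.708 FPKM in the control group, 0.884, 1.26, 1.07 and 0.548 FPKM in the PCOS group and 0.386, 0.909, 0.625 and 0.440 FPKM in the PCOS-MV group. Its groups overlapped, and its log2 fold changes without the filter were 0.14 ± 0.12 and -0.28 ± 0.14, neither past the threshold.

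Some markers of the cells that make Xcl1 changed in the same direction. The 7 NK cell markers found, of 8 listed, summed to 8.41 to 9.40 FPKM over the Control libraries, 12.4 to 22.9 over the PCOS libraries and 7.52 to 13.47 over those of PCOS-MV. Among the 6 tested, 4 were higher in PCOS (Nkg7 1.03 ± 0.23, Klrd1 0.94 ± 0.20, Prf1 0.88 ± 0.15 and Klrb1b 0.65 ± 0.14 on the log2 scale), and 2 were lower in PCOS-MV than in PCOS (Prf1 -0.83 ± 0.16 and Klrd1 -0.78 ± 0.18). Ncr1, a receptor that defines NK cells and is named here after its values were seen, was below 1 FPKM everywhere, at 0.0199 to 0.186 FPKM over the Control libraries, 0.363 to 0.774 over the PCOS libraries and 0.0881 to 0.243 over those of PCOS-MV. The 11 T cell markers summed to 41.2 to 45.8 FPKM over the Control libraries, 50.48 to 60.2 over the PCOS libraries and 32.7 to 48.4 over those of PCOS-MV, with 2 of 10 tested higher in PCOS (Cd2 and Cd4) and 2 lower in PCOS-MV than in PCOS (Lck and Cd4). Gzmb and Klrk1, the other NK markers tested, had values of -0.07 ± 0.21 and 0.22 ± 0.19 in PCOS that were not called. Of all genes tested, 11.9% were higher in PCOS and 11.4% lower in PCOS-MV than in PCOS. The part of these cells in the change of Xcl1 was not tested.

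**Figure D5:**
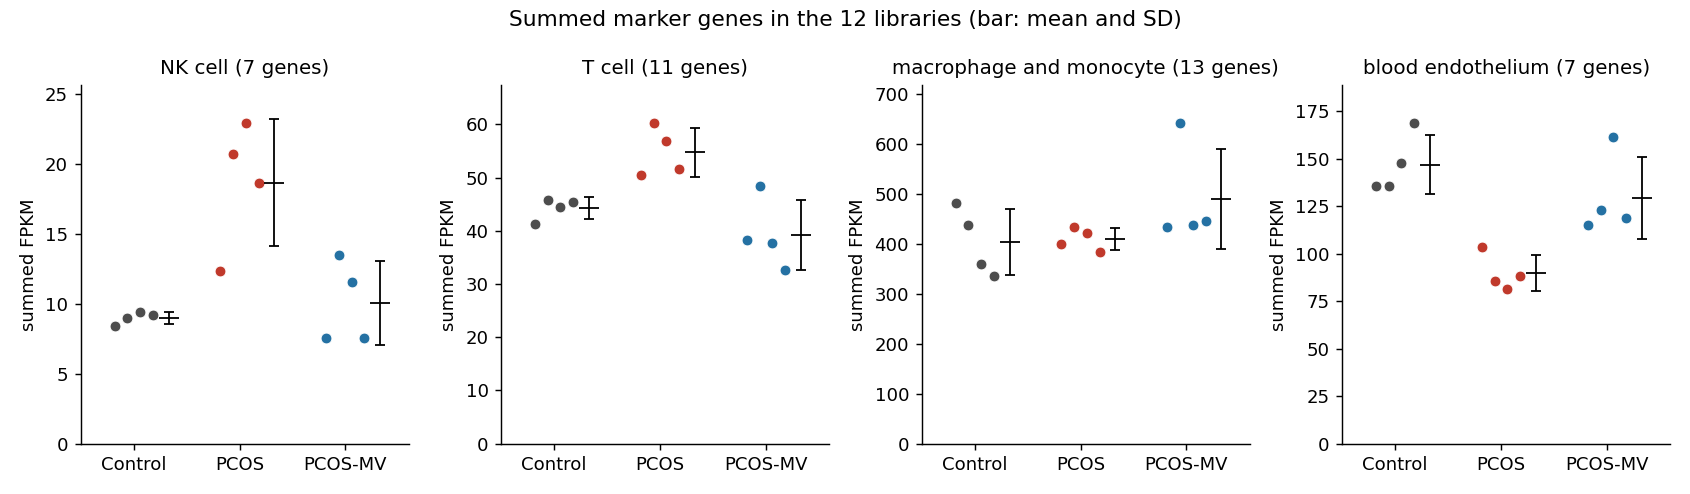
Summed FPKM of marker genes of NK cells, T cells, macrophages and monocytes, and blood endothelium in the 12 libraries, with 1 point per replicate and a bar for the mean and SD, on linear axes from 0. T cell sums are highest in the PCOS group, NK cell sums are above Control there and overlap with PCOS-MV, blood endothelial sums are lowest in PCOS, and macrophage sums overlap between Control and each other group while every PCOS-MV library is above every PCOS library, by a narrow margin.

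Cxcl9, Cxcl10 and Cxcl11 are induced by interferons and attract activated T and NK cells through the receptor Cxcr3. They lie side by side on chromosome 14, within 39.699 kb (17195014 to 17234712 in the deposited table). Cxcl9 was at 28.01, 25.04, 25.6 and 35.498 FPKM in the control group, 44.9, 43.4, 39.3 and 47.9 FPKM in the PCOS group and 28.6, 57.2, 27.7 and 49.498 FPKM in the PCOS-MV group. PCOS libraries were above control libraries with no overlap, and the PCOS-MV group was divided, with replicates 2 and 4 at or above the PCOS level and replicates 1 and 3 near the control level. Cxcl9 rose by 0.61 ± 0.12 (adjusted p = 0.00552, limma) in PCOS, and in PCOS-MV compared with PCOS its value was -0.17 ± 0.23 (adjusted p = 0.624).

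Cxcl10 was at 5.99, 3.37, 3.95 and 4.84 FPKM in the control group, 6.81, 16.3, 9.51 and 8.46 FPKM in the PCOS group and 4.05, 6.49, 2.79 and 7.02 FPKM in the PCOS-MV group. PCOS and control libraries did not overlap, and PCOS replicate 2 was highest. Cxcl10 rose by 0.98 ± 0.25 (adjusted p = 0.0180, limma) in PCOS, a call that was lost without Control replicate 2 (adjusted p = 0.0509). Its value in PCOS-MV against PCOS was -0.89 ± 0.30 (adjusted p = 0.0611), which did not pass, though it did with 1 model for 12 libraries (adjusted p = 0.0379, limma). Cxcl10 lies wholly within Art3 on the opposite strand, and with no statement of strand in the counting the reads of both cannot be told apart. Art3 was at 2.85 FPKM in PCOS and was not called. Cxcl11, also within Art3, was below the filter at 0.425 ± 0.228, 0.805 ± 0.180 and 0.537 ± 0.201 FPKM on average in Control, PCOS and PCOS-MV, and without the filter its change in PCOS was 0.35 ± 0.12 (adjusted p = 0.0905, limma). The promoters of the 2 called neighbours are shown for comparison, Cxcl9 from chr14:16006916-16007215 on the plus strand and Cxcl10 from chr14:15988816-15989115 on the plus strand. Capitals mark a GAS match in Cxcl9, 32 bases after the start, and in Cxcl10 an ISRE match, NF-kB matches of which one runs into a STAT6 match, and an AP-1 match, in this order.
Cxcl9: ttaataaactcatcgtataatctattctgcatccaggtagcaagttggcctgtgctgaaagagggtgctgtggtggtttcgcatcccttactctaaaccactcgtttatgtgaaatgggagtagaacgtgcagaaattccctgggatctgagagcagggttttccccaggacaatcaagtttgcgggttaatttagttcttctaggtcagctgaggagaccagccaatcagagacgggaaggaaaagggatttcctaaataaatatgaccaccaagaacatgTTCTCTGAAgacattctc
Cxcl10: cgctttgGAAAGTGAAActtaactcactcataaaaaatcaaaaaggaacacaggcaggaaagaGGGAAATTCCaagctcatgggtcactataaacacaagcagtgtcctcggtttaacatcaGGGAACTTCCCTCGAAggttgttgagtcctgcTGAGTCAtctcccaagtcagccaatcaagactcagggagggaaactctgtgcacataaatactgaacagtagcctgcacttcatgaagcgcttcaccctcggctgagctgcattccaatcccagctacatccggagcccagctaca

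Their receptor Cxcr3 was at 2.02, 1.42, 1.55 and 2.54 FPKM in the control group, 2.06, 3.36, 3.16 and 2.36 FPKM in the PCOS group and 1.22, 2.38, 1.13 and 2.003 FPKM in the PCOS-MV group. The groups overlapped in both comparisons, and its log2 fold changes of 0.37 ± 0.17 and -0.49 ± 0.18 were not called. Of the list of chemokine inducers and processing enzymes, the interferon-induced transcription factor Irf1 was higher in PCOS (0.81 ± 0.09, adjusted p = 4.06e-04, limma) and lower in PCOS-MV than in PCOS (-0.54 ± 0.12, adjusted p = 0.0104). Interferon-gamma itself (Ifng) was among the 4 genes of that list below the filter.

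Cxcr4, the receptor of Cxcl12 on leukocytes, endothelial cells and germ cells, had the largest fall of the tested members. It was at 31.6, 28.6, 22.4 and 38.1 FPKM in the control group, 7.02, 7.73, 8.84 and 6.62 FPKM in the PCOS group and 21.9, 21.96, 35.99 and 22.2 FPKM in the PCOS-MV group. Every PCOS library was below every other library, while control and PCOS-MV libraries overlapped. Cxcr4 fell by 1.85 ± 0.15 (adjusted p = 7.63e-05, limma) in PCOS, to 0.250 times the control mean, and rose by 1.61 ± 0.17 (adjusted p = 4.56e-04) in PCOS-MV compared with PCOS. Its promoter, shown as that of the member with the largest fall, came from chr13:42634239-42634538 on the minus strand and held none of the 5 motifs.
Cxcr4: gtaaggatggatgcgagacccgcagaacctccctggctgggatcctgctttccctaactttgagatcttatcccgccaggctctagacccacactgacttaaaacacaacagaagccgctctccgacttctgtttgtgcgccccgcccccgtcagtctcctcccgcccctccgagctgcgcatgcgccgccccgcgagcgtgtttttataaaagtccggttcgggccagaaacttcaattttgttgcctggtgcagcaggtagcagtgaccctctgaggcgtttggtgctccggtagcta
Its ligand Cxcl12 was at 20.8, 26.3, 16.9 and 17.4 FPKM in the control group, 31.9996, 33.46, 36.02 and 32.4 FPKM in the PCOS group and 28.6, 55.4, 26.4 and 49.2 FPKM in the PCOS-MV group. Both treated groups were above all control libraries, in the closest case by 26.4 against 26.3 FPKM, with the PCOS libraries close together and PCOS-MV replicates 2 and 4 above replicates 1 and 3. Cxcl12 rose by 0.71 ± 0.13 (adjusted p = 0.00475, limma) in PCOS, and in PCOS-MV compared with PCOS its value was 0.18 ± 0.23 (adjusted p = 0.611). So the receptor was lower and the ligand higher in PCOS. Ackr3, the scavenging receptor of Cxcl12, was at 8.89, 8.54, 15.6 and 10.9 FPKM in the control group, 9.39, 8.62, 9.39 and 9.65 FPKM in the PCOS group and 7.80, 12.3, 8.502 and 9.57 FPKM in the PCOS-MV group. Its groups overlapped in both comparisons and it was not called, at -0.19 ± 0.16 and 0.02 ± 0.13.

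Most blood endothelial markers tested fell in PCOS, as Cxcr4 did. The 7 found of 8 listed summed to 135.6 to 168.6 FPKM over the Control libraries, 81.7 to 103.4 over the PCOS libraries and 114.9 to 161.3 over those of PCOS-MV. In PCOS 6 of the 7 were lower, with Kdr at -1.15 ± 0.13, Esam at -1.05 ± 0.11, Cdh5 at -0.85 ± 0.10 and Tie1 at -0.74 ± 0.15 the largest, and Vwf was higher. Against PCOS, 4 were higher in PCOS-MV, with Kdr at 0.86 ± 0.13. Over all genes tested, 15.6% were lower in PCOS and 14.3% higher in PCOS-MV than in PCOS. The part of endothelium in the change of Cxcr4 was not tested.

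Among the other homeostatic ligands, Cxcl13, which attracts B cells through Cxcr5, was at 7.69, 6.52, 5.04 and 6.38 FPKM in the control group, 3.16, 3.52, 1.45 and 2.16 FPKM in the PCOS group and 2.59, 17.2, 0.786 and 6.61 FPKM in the PCOS-MV group. All PCOS libraries were below all control libraries, and the PCOS-MV libraries ran from below to above both groups. Cxcl13 fell by 1.08 ± 0.20 (adjusted p = 0.00484, limma) in PCOS. Its value in PCOS-MV against PCOS was 0.65 ± 0.63, with an SE near its size. Cxcr5 was below the filter, at 0.691, 0.604, 0.762 and 0.617 FPKM in the control group, 0.434, 0.361, 0.386 and 0.511 FPKM in the PCOS group and 0.367, 0.647, 0.463 and 0.934 FPKM in the PCOS-MV group. In the test over all genes it was lower in PCOS (-0.23 ± 0.05, adjusted p = 0.0151, limma) and not called in PCOS-MV compared with PCOS. The B and plasma cell markers, led by Jchain, summed to 11.1 to 100.2 FPKM over the Control libraries, 3.21 to 5.27 over the PCOS libraries and 5.14 to 7.49 over those of PCOS-MV, where the highest control value is replicate 3. Without Control replicate 3, Cxcl13 was still called in PCOS.

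Cxcl14, an epithelial and stromal ligand, was at 11.54, 29.3, 52.2 and 43.7 FPKM in the control group, 42.1, 46.48, 42.2 and 43.3 FPKM in the PCOS group and 32.4, 22.8, 40.4 and 22.4 FPKM in the PCOS-MV group. Control replicates were widely spread, and the PCOS-MV libraries were all below the PCOS libraries. Cxcl14 fell by 0.59 ± 0.18 (adjusted p = 0.0414, limma) in PCOS-MV compared with PCOS. That call remained only without PCOS-MV replicate 1 or 3 among the 8 fits that left out 1 library each, with adjusted p from 0.00595 to 0.0996.

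Ccl27, a ligand of Ccr10 known from skin, was at 0.927, 0.649, 0.880 and 0.856 FPKM in the control group, 1.32, 1.29, 1.48 and 1.33 FPKM in the PCOS group and 1.04, 1.05, 1.09 and 1.20 FPKM in the PCOS-MV group. The PCOS libraries were above all the others. Ccl27 rose by 0.37 ± 0.11 (adjusted p = 0.0380, limma) in PCOS, and its value of -0.17 ± 0.08 in PCOS-MV compared with PCOS was not called. Its call was kept only without Control replicate 1 or 3 among the fits that left out 1 library. Its last 7 bases overlap Il11ra1 on the opposite strand, which moved in the same direction in PCOS (0.54, adjusted p = 0.0122, limma). Ccr10 was below the filter, at 0.174, 0.230, 0.363 and 0.122 FPKM in the control group, 0.252, 0.315, 0.408 and 0.191 FPKM in the PCOS group and 0.131, 0.174, 0.200 and 0.312 FPKM in the PCOS-MV group. Its groups overlapped.

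Ccl19, a second ligand of Ccr7 beside Ccl21, was at 1.14 ± 0.348, 1.92 ± 0.522 and 2.27 ± 1.20 FPKM on average in Control, PCOS and PCOS-MV, and Ccr7 was below the filter in all 3 (at most 0.863 FPKM). Ackr4, which scavenges Ccl19 and Ccl21, was at 3.75 ± 2.25 FPKM in the control group and 1.33 ± 0.151 in the PCOS group, without overlap but with a wide control spread (adjusted p = 0.0665, limma). It lies within Acad11 on the opposite strand. Acad11 was at 10.2, 6.99 and 8.95 FPKM on average in Control, PCOS and PCOS-MV, and was also lower in PCOS (-0.48, adjusted p = 0.0458, limma). Ccl19, Ccl21 and Ackr4 were not called in any comparison.

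Cx3cl1 (fractalkine) and Cxcl16 are anchored in the membrane and shed by Adam10 and Adam17. Cx3cl1 was at 11.2, 12.1, 15.3 and 11.9 FPKM in the control group, 10.96, 9.19, 9.36 and 9.90 FPKM in the PCOS group and 13.2, 13.2, 11.2 and 19.1 FPKM in the PCOS-MV group. PCOS libraries were below all control and all PCOS-MV libraries, by narrow margins. Cx3cl1 fell by 0.32 ± 0.10 (adjusted p = 0.0492, limma) in PCOS and rose by 0.46 ± 0.15 (adjusted p = 0.0479) in PCOS-MV compared with PCOS. Both calls are just inside the threshold. The first was kept only without Control replicate 1 or PCOS replicate 1, and the second only without PCOS-MV replicate 3. Its receptor Cx3cr1, on monocytes and NK cells, was at 5.99, 3.86, 2.57 and 5.31 FPKM in the control group, 3.44, 3.43, 3.32 and 2.56 FPKM in the PCOS group and 3.69, 7.65, 3.09 and 8.26 FPKM in the PCOS-MV group. Groups overlapped, and its values of -0.34 ± 0.20 and 0.59 ± 0.27 were not called.

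Cxcl16, also a scavenger receptor for oxidized lipoprotein, was at 21.4, 20.002, 22.3 and 20.6 FPKM in the control group, 16.96, 17.3, 17.97 and 18.8 FPKM in the PCOS group and 17.8, 21.7, 17.7 and 21.7 FPKM in the PCOS-MV group. Control libraries were above all PCOS libraries, with small spread in both. Cxcl16 fell by 0.23 ± 0.06 (adjusted p = 0.0276, limma) in PCOS, a call lost without Control replicate 3 or PCOS replicate 1, 2 or 3 (adjusted p up to 0.0809). It was not called in PCOS-MV compared with PCOS (0.14 ± 0.09). Of its bases, 119 overlap Zmynd15, which was at most 0.760 FPKM on average in a group. Cxcr6, its receptor, lies within Fyco1 on the opposite strand and was at 3.15, 2.77, 3.68 and 4.07 FPKM in the control group, 3.47, 3.76, 3.16 and 3.29 FPKM in the PCOS group and 2.70, 3.71, 1.92 and 2.85 FPKM in the PCOS-MV group. Its groups overlapped and it was not called. Fyco1 was at 17.1, 19.9 and 17.0 FPKM on average in Control, PCOS and PCOS-MV. Adam17 was lower in PCOS (-0.35 ± 0.11, adjusted p = 0.0428, limma) and higher in PCOS-MV than in PCOS (0.33 ± 0.08, adjusted p = 0.0178). Adam10 had values of -0.02 ± 0.10 and -0.09 ± 0.10, which were not called.

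Of the CC ligands that attract monocytes and T cells, Ccl4 was at 2.01, 2.13, 2.35 and 2.94 FPKM in the control group, 1.22, 1.56, 1.40 and 1.71 FPKM in the PCOS group and 0.887, 2.63, 1.59 and 2.54 FPKM in the PCOS-MV group. Control libraries were above PCOS libraries and the PCOS-MV libraries spread across both. Ccl4 fell by 0.44 ± 0.12 (adjusted p = 0.0284, limma) in PCOS, and without Control replicate 4 or PCOS replicate 1, 2 or 3 the call was lost. Ccl5, made by T cells and platelets, was at 14.4 ± 2.18, 18.9 ± 6.64 and 11.6 ± 3.01 FPKM on average in Control, PCOS and PCOS-MV, and was not called. In the PCOS group its replicate 1 was at 9.36 FPKM, against 19.6, 22.6 and 24.1 FPKM in replicates 2 to 4. Without PCOS replicate 1, Ccl5 was called in PCOS compared with Control and in PCOS-MV compared with PCOS.

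Ccl6, a myeloid ligand of Ccr1, was at 21.4, 20.96, 14.04 and 10.1 FPKM in the control group, 7.65, 10.8, 12.6 and 5.80 FPKM in the PCOS group and 19.01, 16.6, 20.3 and 10.98 FPKM in the PCOS-MV group. PCOS libraries tended to be the lowest, but each pair of groups overlapped. Ccl6 rose by 0.81 ± 0.25 (adjusted p = 0.0441, limma) in PCOS-MV compared with PCOS, and its value in PCOS compared with Control was -0.78 ± 0.28 (adjusted p = 0.0721). The call in PCOS-MV was kept only without PCOS replicate 3 or PCOS-MV replicate 4. Ccr1 was at 1.74, 1.71, 1.33 and 1.87 FPKM in the control group, 1.52, 1.97, 1.54 and 0.931 FPKM in the PCOS group and 1.62, 3.20, 1.77 and 2.07 FPKM in the PCOS-MV group. It was not called in either comparison. The 13 macrophage and monocyte markers found summed to 336.4 to 480.9 FPKM over the Control libraries, 383.4 to 433.9 over the PCOS libraries and 434.3 to 641.1 over those of PCOS-MV, with 4 of 13 higher in PCOS-MV than in PCOS, led by C1qb (0.88 ± 0.22) and Cd68 (0.77 ± 0.12), and 2 lower (Adgre1 and Csf1r). Over all genes tested, 14.3% were higher and 11.4% lower in that comparison. In PCOS compared with Control, 2 of the 13 markers were higher and 0 lower, where 11.9% and 15.6% of all genes were. Every PCOS-MV sum was above every PCOS sum, in the closest case by 434.35 against 433.91 FPKM. Their part in the changes of Ccl6 and Ccl12 was not tested.

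Of the neutrophil attractants, only Cxcl1 passed the filter. It was at 0.578, 0.516, 3.41 and 0.877 FPKM in the control group, 0.650, 1.35, 1.90 and 1.52 FPKM in the PCOS group and 0.273, 0.488, 0.342 and 0.872 FPKM in the PCOS-MV group. Control replicate 3 was the highest library of all, and PCOS-MV libraries were mostly below PCOS libraries, with an overlap at 1 library. Cxcl1 fell by 0.64 ± 0.19 (adjusted p = 0.0399, limma) in PCOS-MV compared with PCOS, a call kept only without PCOS replicate 1 or PCOS-MV replicate 4. In PCOS compared with Control it was 0.13 ± 0.35, and leaving out 1 library moved this over -0.03 to 0.48. The receptor Cxcr2 was below the filter, at 0.169, 0.225, 0.259 and 0.273 FPKM in the control group, 0.225, 0.320, 0.274 and 0.222 FPKM in the PCOS group and 0.204, 0.245, 0.110 and 0.153 FPKM in the PCOS-MV group. Its groups overlapped, and the 6 neutrophil markers found summed to at most 4.93 FPKM in any library.

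The 25 members below the filter had means over the 12 libraries from 0.0227 FPKM (Ccl25) to 0.759 FPKM (Xcr1). Ccl1, Ccl25, Ccl28, Ccr4, Ccr8, Cxcl17, Cxcl2, Cxcl3 and Cxcr1 were listed at 0 in at least 1 library. When all 19730 genes were tested, 15 of the 53 members were called in PCOS compared with Control, where 19.4% of all genes were, and 7 in PCOS-MV compared with PCOS, where 17.9% were. Those added in the first comparison were Ccl1, Cxcr5, Ccl22 and Ccr6, and Ccl1 was the only one added in the second. Cx3cl1 lost its call in both, and Ccl6, Cxcl1 and Cxcl14 lost theirs in the second. Ccl22, which attracts T cells through Ccr4, was at 0.108 ± 0.0296, 0.320 ± 0.0774 and 0.133 ± 0.117 FPKM on average in Control, PCOS and PCOS-MV (0.25 ± 0.04, adjusted p = 0.00745, limma, PCOS compared with Control). Ccr6, the Ccl20 receptor, was at 0.285 ± 0.0629, 0.582 ± 0.136 and 0.453 ± 0.0383 FPKM (0.30 ± 0.07, adjusted p = 0.0196). The other 15 below the filter were the ligands Ccl3, Ccl9, Ccl17, Ccl20, Ccl25, Ccl28, Cxcl2, Cxcl3, Cxcl6 and Cxcl17 and the receptors Ccr4, Ccr8, Ccr9, Cxcr1 and Ackr2. Their group means ran from 0 to 1.02 FPKM, with the highest in Cxcl17, and 0 of the 15 were called. Such levels are low, and the added pseudocount of 1 FPKM holds their fold changes near 0.

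The count of called members changed with the library left out, as did that of all genes. Leaving out 1 library at a time, 8 to 13 members were called in PCOS compared with Control and 5 to 9 in PCOS-MV compared with PCOS. Of all genes tested, 20.6% to 29.2% were called in the first comparison under these fits. In the second, 18.2% were called without PCOS replicate 2 and 18.3% without PCOS replicate 4, against 25.7% with no library left out. The 5 member calls left without PCOS replicate 2 and without PCOS replicate 4 were in both cases Ccl11, Ccl24, Ccl7, Cxcr4 and Xcl1. Without Control replicate 3, 11 members were called in PCOS, with Cx3cl1 and Cxcl16 lost and Cx3cr1 gained. In PCOS compared with Control, Ccl11, Ccl24, Xcl1, Cxcr4, Cxcl9, Cxcl12 and Cxcl13 were called in all 8 fits that left out a library.

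MV-treated rats were last compared with untreated rats. With 0 of 28 members called by limma, 5 had an unadjusted p under 0.05, and 1142 of 13430 genes had one. These 5 were Cxcl12 (0.89 ± 0.26, adjusted p = 0.497), Xcl1 (0.39 ± 0.15, adjusted p = 0.556), Ccl7 (-0.41 ± 0.16), Ackr4 (-0.84 ± 0.33) and Ccl12 (0.62 ± 0.26). Cxcl12, Xcl1 and Ccl27 were higher in every PCOS-MV library than in every control library, 3 of 28 members with no overlap in that direction, where 2.81% of all genes had this and 5.1% had no overlap in either direction. Without the filter, 0 of the 53 members were called in this comparison, where 0.00507% of all 19730 genes were. Ccl11 differed by 0.95 ± 0.42 (adjusted p = 0.588, limma), Ccl24 by -0.49 ± 0.24 and Cxcr4 by -0.24 ± 0.20. A p above the threshold does not show that the 2 groups were alike.

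Genes that act with the chemokines were followed in 3 lists. Of 14 relatives outside the naming rule, 10 were tested, with 2 higher and 0 lower in PCOS and 0 higher and 2 lower in PCOS-MV compared with PCOS (medians 0.06 and -0.09). The share of this list called was below that of all genes in both comparisons, which was 27.4% and 25.7%. Rarres2 (chemerin), a chemoattractant adipokine, rose from 20.04 ± 1.26 to 43.02 ± 3.27 FPKM in PCOS (1.06 ± 0.08, adjusted p = 4.38e-05, limma) and was at 20.8 ± 4.69 FPKM in PCOS-MV (-1.03 ± 0.15 compared with PCOS, adjusted p = 0.00172). Its receptor Cmklr1 was higher in PCOS (0.49 ± 0.12), and Ccrl2, which binds chemerin without signaling, was lower in PCOS-MV than in PCOS (-0.48 ± 0.15, adjusted p = 0.0490).

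Of the 45 signal transduction genes, all tested, 4 were higher and 11 lower in PCOS, and 10 were higher and 4 lower in PCOS-MV compared with PCOS. These are 33.3% and 31.1% of the list, where 27.4% and 25.7% of all genes were called. Ptk2b, a tyrosine kinase activated by calcium, was lower in PCOS (-2.12 ± 0.23) and higher in PCOS-MV than in PCOS (2.36 ± 0.32). Gnai1, an inhibitory G protein subunit, moved the same way (-1.13 ± 0.08 and 1.01 ± 0.08). Pik3cg, the PI3-kinase subunit that G proteins activate, was higher in PCOS (1.42 ± 0.16) and lower in PCOS-MV than in PCOS (-1.16 ± 0.20). The list held changes in both directions, with a median of -0.08 in PCOS and 0.10 in PCOS-MV compared with PCOS, where all genes had -0.03 and 0.03. Of the 15 inducers and processing genes tested, 1 was higher and 2 lower in PCOS, and 3 were higher and 3 lower in PCOS-MV compared with PCOS (medians -0.06 and -0.09). The share of this list called was below the 27.4% of all genes in the first comparison and above the 25.7% in the second. Beside Irf1, the called genes of this list included Sdc4, a heparan sulfate proteoglycan (-1.11 ± 0.08 and 1.26 ± 0.14). Another was Nfkbia, an NF-kB inhibitor that NF-kB itself induces (-0.74 ± 0.09 in PCOS-MV compared with PCOS).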

How the data were processed

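Processing followed the FPKM table that the authors deposited, in which reads had been filtered, aligned to a rat genome and counted per gene before conversion to FPKM. The paper's methods name HISAT2 and featureCounts for this, and the submitters' processing notes list STAR 2.5.1b and HTSeq 0.6.0, so which tool made the table is open. The genome build is not given in the sources used here. The table also holds the authors' DESeq2 fold changes, p-values and group means, which were not used. Of 26928 transcript lines, no gene's lines differed, and 1 line was kept for each of 19730 genes. The columns named MG were taken as the PCOS-MV group.

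The 13430 genes that averaged 1 FPKM or more across the 12 libraries entered limma 3.58.1 (lmFit, eBayes with trend, in R 4.3.3) on the log2(FPKM + 1) scale, 2 groups at a time, with Benjamini-Hochberg adjustment over all genes tested and a call at 0.05. The pseudocount understates the changes of low genes. Each library came from a separate rat. An exact permutation test, two-sided, was run for single members with scipy 1.17.1. The members and lists were chosen with earlier results of these data known. All members were accounted for except 1 that is not reported here, which stays in the counts. Values in every library were given for each member called in any comparison and for its receptor or ligand, and of each list at most the 4 largest called changes were named, apart from genes said to be picked after their values were seen. Tested on simulated data of 13430 genes for PCOS compared with Control, with 200 changed by 1 on the log2 scale, the test recovered 78.9% of them, and 5.63% of its calls were false. Promoters were taken from the RefSeq table (GRCr8). Alternatives covered the pseudocount, the filter, 1 model for 12 libraries, the replicate number as a block, rescaling by the median ratio, and each library left out in turn. Other assays of the study were not analysed here.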

Additional observations from a re-analysis of the deposited data

Results flagged for a closer look

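In each group of 4 libraries, the highest or lowest value of each of the 53 members was compared with the other 3 by Dixon's ratio. Of 159 groups, 8 had such a library, and chance alone gives about 1 in 20 groups, or 7.95 here. Cxcr4 was at 35.99 FPKM in PCOS-MV replicate 3 against 21.9 to 22.2 FPKM in the other PCOS-MV libraries. Ccl7 was at 1.91 FPKM in PCOS-MV replicate 1 against 1.19 to 1.25 FPKM. The calls of both in PCOS-MV compared with PCOS were kept when any 1 library was left out. Cx3cr1 was at 2.56 FPKM in PCOS replicate 4 against 3.32 to 3.44 FPKM in the other PCOS libraries.

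The other 5 concern members below the filter. Cxcl17, a ligand of mucosal epithelium, was at 3.85 FPKM in Control replicate 3 against 0 to 0.178 FPKM in the other control libraries. The 4 markers of ciliated oviduct epithelium found summed to 21.3 FPKM in the same library against 2.51 to 4.83 FPKM in the others, and their part in the Cxcl17 value was not tested. Cxcl6 was at 0.520 FPKM in PCOS replicate 2 against 0.195 to 0.228 FPKM. Ccl25 was at 0.0157 FPKM in Control replicate 2 and 0.256 FPKM in PCOS replicate 4, and Cxcr1 was at 0.0206 FPKM in PCOS-MV replicate 2. Each was listed at 0 in the other 3 libraries of its group.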

How the results depend on the processing

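The number of members called in PCOS compared with Control was 12, and 12 with a pseudocount of 0.1, 15 with no filter, 8 with 1 model for 12 libraries, 10 after median-ratio rescaling and 8 to 13 with 1 library left out. Of all genes tested, 27.4% were called, then 27.7%, 19.4%, 27.6%, 28.6% and 20.6% to 29.2%. In PCOS-MV compared with PCOS it was 10, then 10, 7, 8 and 9 under these settings, and 5 to 9 with 1 library left out, the lowest without PCOS replicate 2 and without PCOS replicate 4. Over all genes, 3448 were called, then 3458, 3539, 3359 and 3562, and 2445 to 3354 with 1 library left out, with 2445 and 2453 without those 2 libraries. In PCOS-MV compared with Control 0 members were called in each. Under all of these settings Ccl11, Ccl24, Xcl1 and Cxcr4 kept their calls in both of the first comparisons, as did Cxcl12 in the first and Ccl7 in the second. Cxcl9, Cxcl13, Ccl4, Cx3cl1 and Cxcl16 lost their calls in PCOS under 1 model for 12 libraries and Ackr4 gained one. In PCOS-MV compared with PCOS, Ccl6, Cxcl1 and Cxcl14 lost theirs there and Cxcl10 gained one. The cause was not tested. The labels give groups the same replicate numbers, with no statement of what a number shares. With the replicate number as a block, 9, 8 and 0 members were called in the 3 comparisons, where 21.6% and 22.9% of all genes were in the first and second. Ccl27, Cx3cl1, Cxcl10 and Cxcl16 lost their calls in PCOS and Ccl6 gained one, and in PCOS-MV compared with PCOS Ccl12, Cx3cl1 and Cxcl14 lost theirs and Cxcl10 gained one (adjusted p = 0.0367, limma). The deviations of same-numbered libraries had correlations of -0.053 to 0.216 over the 3 comparisons. Between PCOS and PCOS-MV they were 0.101, 0.172, 0.136 and 0.035 for replicates 1 to 4, against -0.157 to 0.038 for different numbers. The main test did not take the numbers to pair the rats, and whether a number marks something shared was not tested. Leaving out 1 library turned the sign of changes that were not called. In PCOS compared with Control, Ccl12 ran over -0.20 to 0.14 and Cxcl1 over -0.0283 to 0.4850. In PCOS-MV compared with PCOS, Cxcl12 ran over -0.0028 to 0.3446. In PCOS-MV compared with Control, Ccl6 ran over -0.17 to 0.21, Cx3cl1 over -0.0032 to 0.2378, Cxcl10 over -0.0575 to 0.3022, Cxcl13 over -1.01 to 0.11 and Cxcl14 over -0.49 to 0.20. Without counts, the precision that depth gives could not be set, and 25 members were too low to be tested in the main comparison.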

Other observations

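Several members lie in other clusters of the deposited table. On chromosome 10, Ccl5, Ccl9, Ccl6, Ccl3 and Ccl4 span 146.556 kb, and in PCOS compared with Control Ccl4 fell by 0.44 ± 0.12 while its neighbours Ccl5 and Ccl6 had values of 0.30 ± 0.27 and -0.78 ± 0.28 that were not called. On chromosome 5, Ccl27, Ccl19 and Ccl21 span 39.717 kb, with values of 0.37 ± 0.11, 0.45 ± 0.17 and -0.24 ± 0.14 in PCOS, of which that of Ccl27 was called by limma. On chromosome 8, Ccr9, Cxcr6, Xcr1, Ccr1 and Ccr3 span 212.907 kb, and neither Cxcr6 nor Ccr1, which were tested, was called. Within the PCOS-MV group, replicates 2 and 4 were above replicates 1 and 3 for several members. Ccl19 was at 1.32, 2.91, 1.22 and 3.65 FPKM in replicates 1 to 4 of that group, and Ccl21, which ran the other way, at 128.6, 40.6, 107.2 and 74.8 FPKM. The summed markers of luteal cells and of theca and interstitial cells were lower in replicates 2 and 4 of that group. The luteal sums were 4299.02, 2215.97, 4595.9 and 2197.46 FPKM and the theca and interstitial sums 2762.2, 786.8, 1884.8 and 805.2 FPKM in replicates 1 to 4, and their part in the members' values was not tested. The labels name nothing that these libraries share.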
